A study of Mus musculus with 8 samples.

Results

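Mitochondrial fatty acid oxidation was followed here through 33 genes, chosen by name as rows of the deposited expression table, which holds 24341 genes in all. All 33 were found: 6 of the carnitine shuttle, 7 acyl-CoA dehydrogenases, 6 genes of the hydratase, hydroxyacyl-CoA dehydrogenase and thiolase steps, 3 auxiliary enzymes for unsaturated chains, 3 genes of the electron transfer flavoprotein system, malonyl-CoA decarboxylase, 3 thioesterases, 2 uncoupling proteins and 2 synthetases. RNA came from lysates of mouse heart ventricle, 1 library per sample. The Cre Positive group held 4 libraries from male Med13/13L fl/fl mice carrying a Cre recombinase that, by the series title, acts in cardiomyocytes, the muscle cells of the heart. The Cre Negative group held 4 libraries from male mice of the same floxed genotype without Cre. Both groups were fed Tamoxifen Chow and were 12 weeks old, and per the series' design text 4 weeks had passed since tamoxifen. The sources used here do not give the promoter that drives Cre. Because the controls carry floxed alleles and tamoxifen but no Cre, an effect of Cre itself and an effect of losing Med13 and Med13l cannot be told apart. The paralogues Med13 and Med13l join the CDK8 kinase module to Mediator, a coactivator complex of RNA polymerase II. The question was how transcripts of each step of fatty acid oxidation differ between ventricles with and without that Cre.

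Fatty acids are the main fuel of the adult heart. Long-chain acyl-CoA is converted to acylcarnitine at the outer mitochondrial membrane, carried across the inner membrane and converted back, and malonyl-CoA restrains the first of these reactions. Each round of beta-oxidation then runs through a dehydrogenase, a hydratase, a second dehydrogenase and a thiolase, and releases acetyl-CoA, while the electrons of the first step pass through the electron transfer flavoprotein to ubiquinone. Many of these genes are known targets of the PPAR and ERR nuclear receptors and their PGC-1 coactivators.

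Levels were deposited as FPKM, fragment counts scaled by transcript length and library size, so levels can be set side by side across genes. Estimated depth, in M (1000000) fragments, ran from 4.49 to 23.4 M in Cre-positive libraries and from 5.50 to 15.2 M in Cre-negative libraries, and a transcript of 2 kb at 1 FPKM then rests on 8.98 to 46.8 fragments. Med13 averaged 8.13 ± 0.554 FPKM in Cre-positive and 12.0 ± 2.23 FPKM in Cre-negative libraries, and Med13l averaged 2.52 ± 0.113 FPKM in Cre-positive and 4.92 ± 0.814 FPKM in Cre-negative libraries (SD, n = 4 per group). Every Cre-positive library was below every Cre-negative library for both genes, measured over whole genes and all cell types. The ribosomal precursor Rn45s parted the libraries in a way the groups do not: it stood at 10.3 to 15.98 FPKM in Cre-positive 3 and 4 and Cre-negative 2, which were also the deepest, and at 396 to 1053 FPKM in the other 5. Of 12 cardiomyocyte markers, 10 fell and none rose, where 19.4% of all tested genes were called lower. The 12 summed to 37299.7 to 38934 FPKM in Cre-positive and 76975 to 81847 FPKM in Cre-negative libraries. Actc1 and Mybpc3 were not called. Actc1 averaged 10513 FPKM in Cre-positive and 10403 FPKM in Cre-negative libraries, and Mybpc3 averaged 1190 and 1291 FPKM. Of 8 adipocyte markers, Adipoq, Plin1, Cidec, Lep, Ucp1 and Retn stayed at 0.535 FPKM or less in all libraries and Cfd at 2.87 FPKM or less, while Cidea was at 38.6 to 46.97 FPKM in Cre-positive and 30.9 to 33.7 FPKM in Cre-negative libraries. In whole ventricle, fewer cardiomyocytes and less RNA of the genes that fell per cardiomyocyte cannot be told apart.

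Transcripts of nearly every step were lower in Cre-positive ventricles. Of the 32 members with a mean of at least 1 FPKM, 27 fell and 1, Cpt1a, rose (limma adjusted p under 0.05 over all genes tested), whereas 19.4% of all 11688 tested genes were called lower and 19.7% higher, 39.2% in either direction. Acads, Hsd17b10, Ucp2 and Acsl5 were not called, and Acad10 was below the minimum. Acot1 passed that minimum only through the Cre-negative libraries. With no minimum at all 26 of the 33 members were called lower and 1 higher. Acot1 kept its call there, and Acad12 lost its call (limma adjusted p = 0.0503). The median log2 change was -1.08 for the members and -0.01 for all genes tested. A called fall of 1 or more on the log2 scale was reached by 19 members, Acot1 among them, against 2.84% of all genes tested. All 4 Cre-positive libraries lay below all 4 Cre-negative libraries for 27 of 33 members and above them for 1, against 18.7% and 19.3% of all genes tested. Among the 27 that fell, the Cre-positive mean was 10.8% to 72.3% of the Cre-negative mean, with a median of 44.5%. The lower end was Acot1, and the next lowest was Ucp3 at 19.0%.

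The choice of scale moved these sizes without turning a called member round. Every library was also scaled to a fixed sum of FPKM, taken without small RNAs, Rn45s and ribosomal protein genes. This shifted the median of all genes from -0.01 to 0.26. Of 11701 genes tested on that scale, 5340 were called higher and 1030 lower. Of these calls 83.8% were higher, where the deposited scale gave 50.4%. On that scale 25 members were called lower, all of them among the 27, and the median of the 32 tested members was -1.04 relative to the median of all genes, against -1.08 as deposited. Cpt1b (-0.23, limma adjusted p = 0.0986) and Acadl (-0.16, adjusted p = 0.181) lost their calls there. Hsd17b10, Ucp2 and Acsl5, none of them called as deposited, had positive values, and Acsl5 was called higher (0.20, adjusted p = 0.0382).

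**Figure D1:**
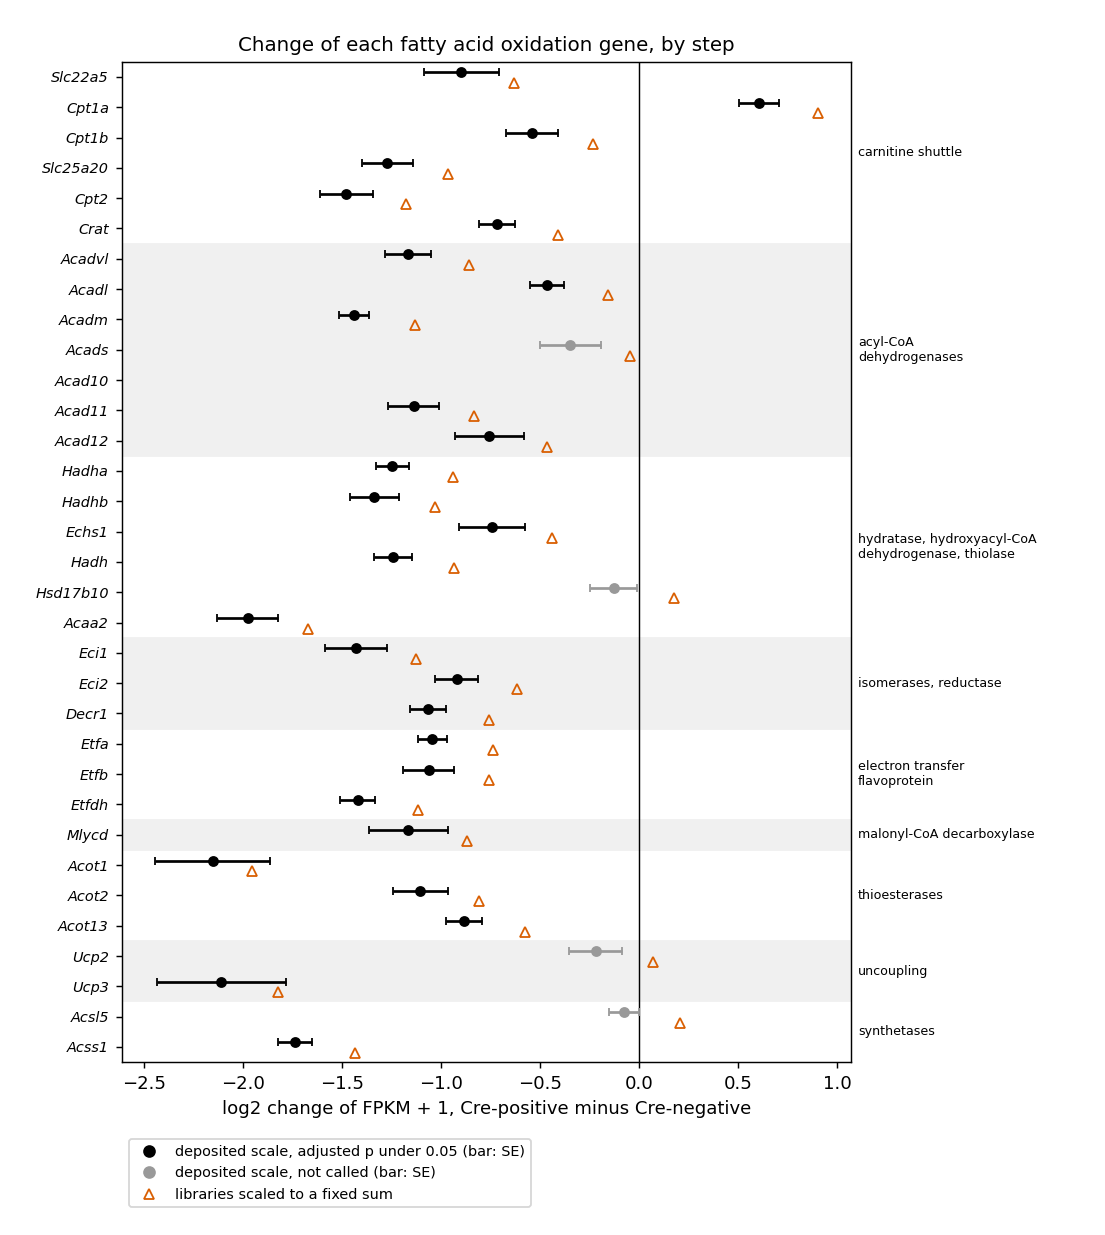
Log2 change of FPKM + 1, Cre-positive minus Cre-negative, for 32 tested genes ordered by step, with circles on the deposited scale (bars: SE; grey: not called) and triangles after scaling libraries to a fixed sum. The circles of 27 genes lie left of 0 and are called, Cpt1a lies at 0.60, and on the fixed-sum scale Hsd17b10, Ucp2 and Acsl5 stand right of 0.

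Summed over all 33 genes, the Cre-positive libraries held 3894, 4507, 4336 and 4572 FPKM, against 9500.2, 10447, 8129 and 9293 FPKM in Cre-negative libraries 1 to 4. The highest Cre-positive sum was thus below the lowest Cre-negative one. The sums correspond to 0.918% ± 0.0536 of all FPKM in Cre-positive and 1.61% ± 0.0891 in Cre-negative libraries (SD, n = 4 per group). By step, the summed mean of the Cre-positive group was 34.2% of the Cre-negative one for the synthetases, 38.1% for the uncoupling proteins, 40.9% for hydratase, dehydrogenase and thiolase, 44.0% for the electron transfer flavoprotein genes, 44.6% for the auxiliary enzymes, 51.1% for the acyl-CoA dehydrogenases, 53.0% for the thioesterases and 58.9% for the carnitine shuttle. Acsl5 stood at 94.3% and Ucp2 at 86.7% of the Cre-negative mean, and neither was called. The sums of the synthetases and of the uncoupling proteins thus mainly reflect Acss1 (29.4%) and Ucp3 (19.0%). The summed cardiomyocyte markers stood at 47.5% and the 33 genes together at 46.3%. Single cardiomyocyte markers ranged from 29.6% for Mb to 101% for Actc1, so the summed percent does not describe each marker. Whether a share of cardiomyocyte RNA accounts for part of the falls was not tested.

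**Figure D2:**
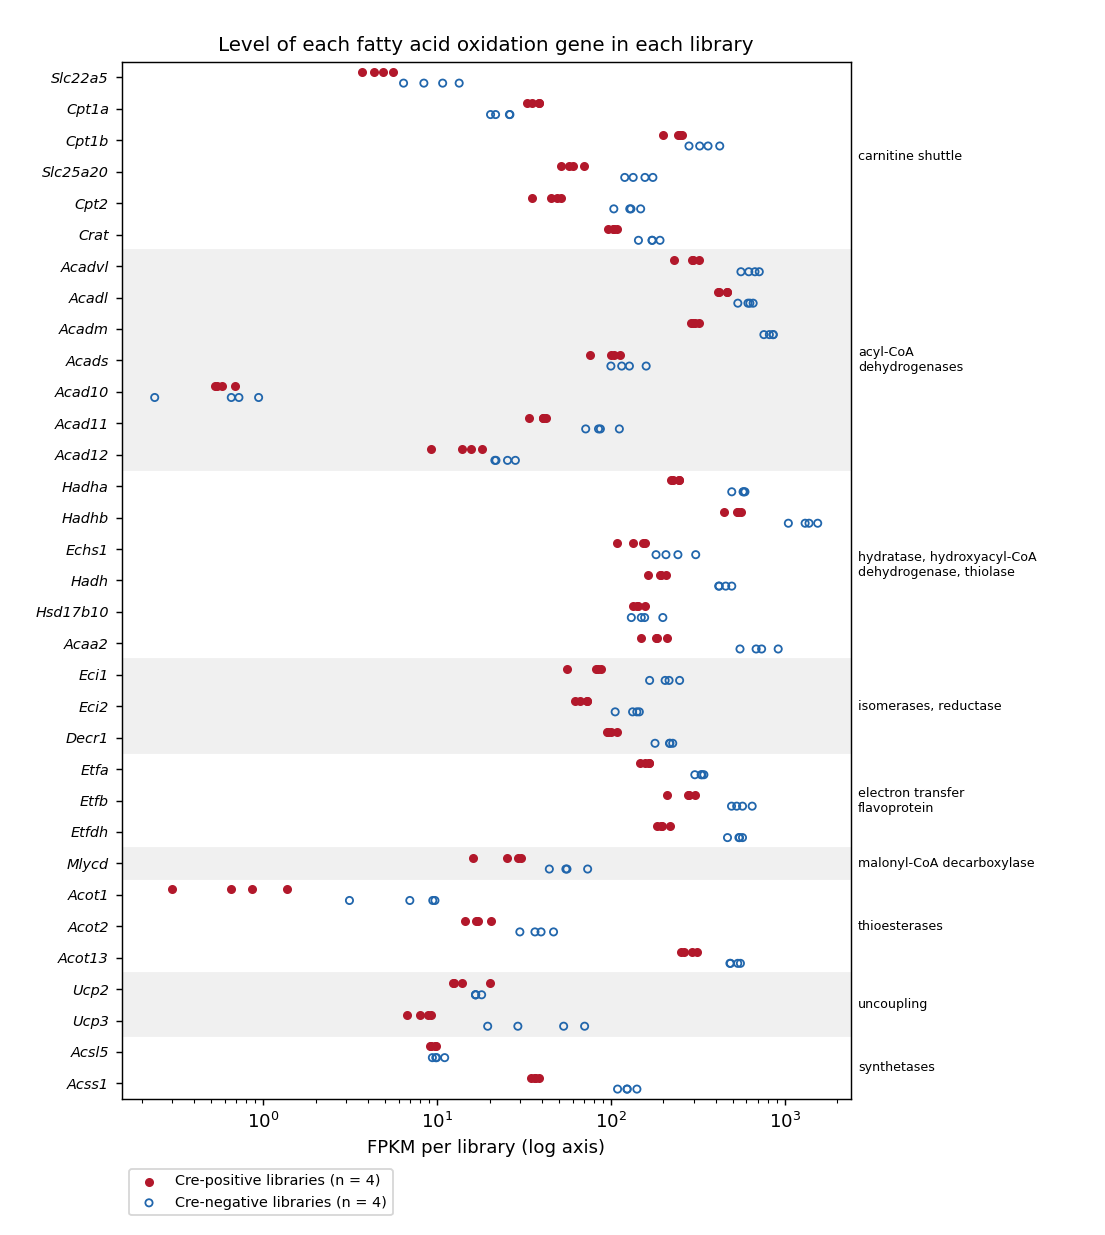
FPKM of each of the 33 genes in each library on a log axis, ordered by step, with Cre-positive libraries as filled points above Cre-negative libraries as open points. Points of the 2 groups overlap for Acads, Acad10, Hsd17b10, Ucp2 and Acsl5, and Cpt1a is the gene whose filled points lie to the right.

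The carnitine shuttle held the single gene that rose. Cpt1a, the carnitine palmitoyltransferase 1 form that dominates in liver and in the fetal heart, lies on chromosome 19 from 3323301 to 3385733 (mm10). Cpt1a stood at 32.8, 34.9, 38.7 and 38.3 FPKM in Cre-positive libraries 1 to 4, against 20.3, 26.2, 21.7 and 26.0 FPKM in Cre-negative libraries 1 to 4. Its lowest Cre-positive value was above its highest Cre-negative value, and the log2 change was 0.60 with an SE of 0.10 (limma adjusted p = 0.000907). Cpt1b, the muscle form and the main carnitine palmitoyltransferase 1 of the adult heart (chromosome 15, 89416405 to 89429927), had 198, 244, 250.3 and 254 FPKM in Cre-positive and 361, 421, 280.5 and 323 FPKM in Cre-negative libraries. The groups did not overlap, but the gap between them was narrow, and the log2 change was -0.54 with an SE of 0.13 (limma adjusted p = 0.00766). Gm44502 shares 78.6% of the 50-base stretches of the annotated Cpt1b transcripts, counted on either strand. Reads of this pair may thus be divided between them, which was not measured.

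Set against each other, the isoforms differed in proportion between the groups. Cpt1a made up 14.2%, 12.5%, 13.4% and 13.1% of the summed Cpt1a and Cpt1b FPKM in Cre-positive libraries and 5.32%, 5.85%, 7.17% and 7.45% in Cre-negative libraries. The log2 ratio of Cpt1a to Cpt1b averaged -2.67 ± 0.09 in Cre-positive and -3.82 ± 0.25 in Cre-negative libraries (SD, n = 4 per group), a difference of 1.14. By an exact permutation test, two-sided, p was 0.0286, the smallest 8 libraries allow, and 0.0476 adjusted over the 5 ratios computed. The adjusted p was under 0.05 only because the ratios Acot1 to Acot2 and Ucp2 to Ucp3 also reached that smallest p. The test of Acot1 to Acot2 is a description only. Every Cre-positive library was above every Cre-negative one for Cpt1a and below for Cpt1b, so the ratios had to part. The p of this ratio is therefore no separate support. With Cre-negative libraries 1 and 2 averaged the difference was 1.08 with an adjusted p of 0.0714, and it was 1.05 to 1.22 with an adjusted p of 0.0476 to 0.0952 with 1 library left out, the call being lost without any 1 Cre-positive library and without Cre-negative library 2. With 7 libraries there are 35 assignments, so that an unadjusted p moves in steps of 0.0286. Cpt1b was the more abundant isoform in all 8 libraries. The promoter of Cpt1a (RefSeq, GRCm38.p6, chr19:3323051-3323350, plus strand) is shown because this is the gene that rose, with capitals marking a nuclear receptor half-site, AGGTCA or its reverse complement.
Cpt1a promoter: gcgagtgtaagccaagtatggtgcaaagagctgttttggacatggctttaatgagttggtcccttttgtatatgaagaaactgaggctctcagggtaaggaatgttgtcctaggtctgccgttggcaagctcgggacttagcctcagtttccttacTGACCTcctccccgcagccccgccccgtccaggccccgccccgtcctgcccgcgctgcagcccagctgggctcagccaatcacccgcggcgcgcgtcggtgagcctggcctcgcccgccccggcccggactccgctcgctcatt

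The other 4 shuttle genes fell. Cpt2, which turns acylcarnitine back into acyl-CoA in the matrix, had 35.2, 48.7, 45.1 and 51.8 FPKM in Cre-positive libraries and 128, 148, 104 and 130.04 FPKM in Cre-negative libraries. That is 35.5% of the Cre-negative mean, and the log2 change was -1.48 ± 0.14 (SE, limma adjusted p = 1.74e-05). Slc25a20, the carrier that exchanges acylcarnitine for carnitine across the inner membrane, had 51.5, 60.4, 57.2 and 69.7 FPKM in Cre-positive and 157, 174, 119.8 and 134 FPKM in Cre-negative libraries (log2 change -1.27, SE 0.13, adjusted p = 3.17e-05). For both genes the 2 groups were far apart compared with the spread inside them. Crat, which moves acetyl groups between CoA and carnitine, had 96.2, 102, 104 and 108 FPKM in Cre-positive and 172, 191, 144 and 172 FPKM in Cre-negative libraries. Slc22a5, the carnitine transporter of the plasma membrane, had 3.71, 4.35, 4.91 and 5.55 FPKM in Cre-positive and 10.7, 13.4, 6.41 and 8.38 FPKM in Cre-negative libraries. The log2 changes were -0.72 with an SE of 0.09 for Crat (adjusted p = 0.000161) and -0.90 with an SE of 0.19 for Slc22a5 (adjusted p = 0.00369). Slc22a5 was the lowest shuttle gene in every library, and 26.1% of the 50-base stretches of its annotated transcripts also occur in Slc22a21.

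Among the acyl-CoA dehydrogenases, which take the first oxidation step, the enzymes differed in how far they fell. Acadm, the medium-chain enzyme (chromosome 3, 153922353 to 153944643), had 287, 319, 295 and 305 FPKM in Cre-positive and 853, 856, 756 and 813 FPKM in Cre-negative libraries. Its log2 change of -1.44 had an SE of 0.07 (limma adjusted p = 9.02e-07), and no other acyl-CoA dehydrogenase fell as far. Acadvl, the very long-chain enzyme of the inner membrane, had 231, 293, 297 and 322 FPKM in Cre-positive and 672, 711, 558 and 619 FPKM in Cre-negative libraries (log2 change -1.17, SE 0.12, adjusted p = 2.9e-05). Dvl2 shares 26.9% of the 50-base stretches of Acadvl transcripts. Acad11, reported to act on longer chains, stood at 39.4 ± 3.98 FPKM in Cre-positive and 88.6 ± 16.7 FPKM in Cre-negative libraries (SD, n = 4 per group).

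The long-chain enzyme Acadl fell less, to 439 ± 28.4 FPKM in Cre-positive, against 608 ± 51.5 FPKM in Cre-negative libraries (SD, n = 4 per group; log2 change -0.47, SE 0.09, limma adjusted p = 0.0018). After quantile normalization its call was lost (-0.17, adjusted p = 0.259). Acadl held rank 2 of the 33 genes by mean level in Cre-positive and rank 5 in Cre-negative libraries, while Acadm held rank 3 and rank 2. Acads, the short-chain enzyme, had 75.8, 99.4, 103 and 113 FPKM in Cre-positive and 127, 159, 99.7 and 115 FPKM in Cre-negative libraries. Its groups overlapped and the log2 change of -0.35 was not called (SE 0.15, adjusted p = 0.101). Acads was called lower with a split of the libraries by Rn45s as a term (-0.44, limma adjusted p = 0.00968). That split was made from these data, at 100 FPKM of Rn45s, and the labels name no batch. Acads was also called lower without Cre-negative library 3 (-0.45, adjusted p = 0.0387).

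Acad12 and Acad10, neighbours on chromosome 5 with 2090 bases between their listed loci, stood at very different levels. Acad12 had 14.2 ± 3.75 FPKM in Cre-positive and 24.2 ± 3.18 FPKM in Cre-negative libraries (SD, n = 4 per group) and fell by 0.76 on the log2 scale (limma adjusted p = 0.00632). Acad10 had 0.527, 0.578, 0.685 and 0.545 FPKM in Cre-positive and 0.654, 0.9397, 0.237 and 0.724 FPKM in Cre-negative libraries. Its groups overlapped, and the lowest value rests on about 6.21 estimated fragments. Some sequence is common to both, 15.7% of the 50-base stretches of Acad12 and 16.8% of those of Acad10, so their values are uncertain to that extent.

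The genes of the later steps of the cycle include both the most abundant member and the one of this step with the deepest fall. Acaa2, the mitochondrial thiolase of the last step, had 149, 182, 183 and 210.2 FPKM in Cre-positive and 682, 914, 551 and 734 FPKM in Cre-negative libraries. Its Cre-positive mean was 25.1% of the Cre-negative mean (log2 change -1.98, SE 0.15, limma adjusted p = 6.14e-06), and it held rank 11 of 33 by level in Cre-positive and rank 3 in Cre-negative libraries. Hadhb, the thiolase subunit of the trifunctional protein, which handles long chains at the inner membrane, had 448, 537, 529 and 556 FPKM in Cre-positive and 1375, 1542, 1045 and 1305 FPKM in Cre-negative libraries. The log2 change was -1.34 with an SE of 0.12 (adjusted p = 1.76e-05), and Hadhb had the highest level of the 33 genes in both groups. Hadha, the hydratase and dehydrogenase subunit, stood at 235 ± 12.5 FPKM in Cre-positive and 559 ± 43.7 FPKM in Cre-negative libraries (SD, n = 4 per group; log2 change -1.24, SE 0.08, adjusted p = 2.54e-06).

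Hadha and Hadhb lie head to head on chromosome 5, on opposite strands, with 273 bases between their RefSeq starts. The log2 ratio of Hadha to Hadhb averaged -1.13 ± 0.12 in Cre-positive and -1.22 ± 0.14 in Cre-negative libraries (SD, n = 4 per group). The difference of 0.09 was within that spread (exact two-sided permutation p = 0.400, 0.500 adjusted over the 5 ratios). Of the 300 bases around the start of Hadhb, the first 228 also lie in the window of Hadha, and the whole Hadhb window is shown since both genes fell (RefSeq, GRCm38.p6, chr5:30155003-30155302, plus strand). It contains no AGGTCA on either strand, hence no capitals. The pair was picked for display after its values were seen.
Hadhb promoter: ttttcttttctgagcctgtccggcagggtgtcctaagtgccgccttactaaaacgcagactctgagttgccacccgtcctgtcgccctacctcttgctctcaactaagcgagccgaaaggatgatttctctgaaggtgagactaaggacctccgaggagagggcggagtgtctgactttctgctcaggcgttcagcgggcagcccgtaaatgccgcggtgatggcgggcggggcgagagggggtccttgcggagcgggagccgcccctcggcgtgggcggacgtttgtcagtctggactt

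Hadh, the medium- and short-chain hydroxyacyl-CoA dehydrogenase, had 189 ± 19.2 FPKM in Cre-positive and 446 ± 36.9 FPKM in Cre-negative libraries (SD, n = 4 per group; log2 change -1.24, limma adjusted p = 6.08e-06). Echs1, the short-chain enoyl-CoA hydratase, fell less, to 138 ± 22.1 FPKM in Cre-positive, against 234 ± 54.3 FPKM in Cre-negative libraries (log2 change -0.74, adjusted p = 0.00522). Hsd17b10, a dehydrogenase of isoleucine and short-chain acyl-CoA breakdown that is also a subunit of mitochondrial RNase P, had 134, 143, 141 and 156 FPKM in Cre-positive and 149, 198, 131 and 156 FPKM in Cre-negative libraries. Its groups overlapped over most of their range, and the log2 change of -0.13 was not called (SE 0.12, adjusted p = 0.426).

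Unsaturated chains need auxiliary enzymes that move or reduce double bonds, and all 3 of them fell. Eci1, a mitochondrial enoyl-CoA isomerase, had 55.4, 82.2, 83.6 and 87.8 FPKM in Cre-positive and 215, 248, 167 and 204 FPKM in Cre-negative libraries (log2 change -1.43, SE 0.16, limma adjusted p = 5.96e-05). Decr1, the dienoyl-CoA reductase, had 94.3, 109, 96.0 and 99.4 FPKM in Cre-positive and 217, 218, 179 and 226 FPKM in Cre-negative libraries (log2 change -1.06, SE 0.09, adjusted p = 1.06e-05). Cre-positive library 1 was the lowest for both, and no library of one group reached the range of the other. Eci2, a second isomerase also found in peroxisomes, stood at 68.4 ± 5.38 FPKM in Cre-positive and 131 ± 17.8 FPKM in Cre-negative libraries (SD, n = 4 per group; log2 change -0.92, adjusted p = 8.75e-05).

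The 3 genes that carry electrons from the dehydrogenases to ubiquinone all fell. Etfdh, the flavoprotein oxidoreductase that hands electrons to ubiquinone, had 184, 218, 194 and 196 FPKM in Cre-positive and 569.6, 548, 467 and 543 FPKM in Cre-negative libraries (log2 change -1.42, SE 0.09, limma adjusted p = 1.93e-06). Etfb, the beta subunit of the flavoprotein itself, had 209.7, 282, 278 and 305 FPKM in Cre-positive and 569.8, 647, 492 and 528 FPKM in Cre-negative libraries (log2 change -1.06, SE 0.13, adjusted p = 9.79e-05). Gm45233 shares 43.8% of the 50-base stretches of Etfb transcripts. The alpha subunit Etfa stood at 158 ± 8.85 FPKM in Cre-positive and 327 ± 16.7 FPKM in Cre-negative libraries (SD, n = 4 per group; log2 change -1.04, adjusted p = 3.98e-06). The log2 ratio of Etfa to Etfb averaged -0.75 ± 0.16 in Cre-positive and -0.77 ± 0.18 in Cre-negative libraries, a difference of 0.02 that lay within the spread (exact two-sided permutation p = 0.800).

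Mlycd, which degrades malonyl-CoA and so lifts the brake on carnitine palmitoyltransferase 1, had 16.1, 25.1, 29.1 and 30.3 FPKM in Cre-positive and 55.0, 73.3, 44.1 and 55.7 FPKM in Cre-negative libraries. The groups did not overlap (log2 change -1.17, SE 0.20, limma adjusted p = 0.00106), and Cre-positive library 1 stood lowest. Acacb, the acetyl-CoA carboxylase that makes malonyl-CoA at mitochondria in muscle, also fell, to 36.0 ± 6.37 FPKM in Cre-positive, against 51.9 ± 5.98 FPKM in Cre-negative libraries (SD, n = 4 per group; log2 change -0.53, adjusted p = 0.00824).

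Thioesterases split acyl-CoA into free fatty acid and CoA, and all 3 members fell. Acot1, the cytosolic form of its cluster (chromosome 12, 84009502 to 84017669), had 0.858, 0.297, 0.650 and 1.36 FPKM in Cre-positive and 6.96, 9.70, 3.13 and 9.43 FPKM in Cre-negative libraries. Its Cre-positive mean was 10.8% of the Cre-negative mean (log2 change -2.15, SE 0.29, limma adjusted p = 0.000232). Acot1 passed the minimum of 1 FPKM only through the Cre-negative libraries, so this p is a description and no separate support. Its values rest on 6.70 to 80.0 estimated fragments in Cre-positive and 45.04 to 387 in Cre-negative libraries, so counting error is large for the lowest of them. Acot2, the mitochondrial form 15626 bases upstream (83987861 to 83993875), had 16.7, 20.3, 14.4 and 17.1 FPKM in Cre-positive and 39.6, 36.5, 29.9 and 46.7 FPKM in Cre-negative libraries (log2 change -1.10, SE 0.14, adjusted p = 0.000137). Acot13, a mitochondrial thioesterase of another family, stood at 279 ± 27.6 FPKM in Cre-positive and 514 ± 35.8 FPKM in Cre-negative libraries (SD, n = 4 per group; log2 change -0.88, adjusted p = 3.54e-05).

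Within the tandem pair Acot1 stood lower relative to Acot2 in Cre-positive libraries. Acot1 passed the minimum of 1 FPKM only through the Cre-negative libraries, so the test of this ratio is a description and no separate support. The log2 ratio of Acot1 to Acot2 averaged -3.36 ± 0.47 in Cre-positive and -2.31 ± 0.45 in Cre-negative libraries (SD, n = 4 per group), a difference of -1.05 (exact two-sided permutation p = 0.0286, 0.0476 adjusted over the 5 ratios). The nearest libraries of the 2 groups, Cre-positive 4 at -2.93 and Cre-negative 3 at -2.90, were almost level. With a pseudocount of 0.1 in place of 1 the difference was -1.93, so its size depends on that setting. The Acot1 mean in Cre-positive libraries, 0.792 FPKM, is below a pseudocount of 1. The call was lost with Cre-negative libraries 1 and 2 averaged (-0.97, adjusted p = 0.0952) and without any 1 Cre-positive library or Cre-negative library 2 (adjusted p = 0.0952 each), while the difference lay between -1.24 and -0.82 with any 1 library left out. Of the 50-base stretches of Acot1 transcripts 13.6% also occur in Acot2, and 24.5% of those of Acot2 occur in Acot1, so part of the reads of either gene can be placed at the other. Their promoters are shown side by side to compare the pair (RefSeq, GRCm38.p6, chr12:84009252-84009551 and chr12:83987611-83987910, both plus strand). The windows match at 50.3% of 354 aligned columns, and neither holds AGGTCA, hence no capitals.
Acot1 promoter: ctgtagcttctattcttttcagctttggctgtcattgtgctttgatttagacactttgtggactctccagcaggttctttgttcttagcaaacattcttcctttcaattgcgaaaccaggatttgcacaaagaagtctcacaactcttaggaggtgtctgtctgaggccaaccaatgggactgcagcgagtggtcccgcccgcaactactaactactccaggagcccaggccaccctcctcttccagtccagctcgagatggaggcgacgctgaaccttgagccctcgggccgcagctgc
Acot2 promoter: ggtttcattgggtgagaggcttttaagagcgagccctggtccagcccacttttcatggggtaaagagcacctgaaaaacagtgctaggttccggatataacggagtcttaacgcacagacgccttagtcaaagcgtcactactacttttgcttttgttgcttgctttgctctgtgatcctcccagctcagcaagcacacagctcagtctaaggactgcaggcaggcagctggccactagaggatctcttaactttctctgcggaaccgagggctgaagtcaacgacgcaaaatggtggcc

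The uncoupling proteins, inner membrane carriers that are neighbours on chromosome 7, parted from each other. Ucp3, the muscle form and a known responder to fatty acid supply (100472991 to 100486432), had 7.93, 6.73, 8.83 and 9.22 FPKM in Cre-positive and 29.1, 53.3, 19.5 and 70.4 FPKM in Cre-negative libraries. The Cre-positive values were close together, while the Cre-negative values had the highest coefficient of variation of the 33 genes in that group, 53.7%, and the groups stayed apart (log2 change -2.11, SE 0.32, limma adjusted p = 0.00054). Ucp2, the form found in many tissues (100493358 to 100499629), had 20.1, 12.5, 12.3 and 13.9 FPKM in Cre-positive and 16.6, 18.01, 16.6 and 16.6 FPKM in Cre-negative libraries. Cre-positive library 1 was the highest of all 8 and the other 3 Cre-positive libraries were below every Cre-negative one. Ucp2 was not called (log2 change -0.22, SE 0.14, adjusted p = 0.230), and without Cre-positive library 1 it was called lower (-0.37, adjusted p = 0.00613). The ratio of Ucp2 to Ucp3 was above 1 in all Cre-positive libraries, at 2.53, 1.86, 1.39 and 1.51, and below 1 in all Cre-negative libraries, at 0.571, 0.338, 0.851 and 0.236. On the log2 scale the ratio averaged 0.76 ± 0.36 in Cre-positive and -1.13 ± 0.79 in Cre-negative libraries (SD, n = 4 per group; exact two-sided permutation p = 0.0286, 0.0476 adjusted over the 5 ratios). The difference was 1.89, and it lay between 1.59 and 2.19 with any 1 library left out and at 1.88 with Cre-negative libraries 1 and 2 averaged. Its adjusted p was 0.0714 or 0.0952 without any 1 Cre-positive library, without Cre-negative library 2 and with the averaging. With all 8 libraries it was under 0.05 only because Cpt1a to Cpt1b and Acot1 to Acot2 also reached the smallest p. The test of Acot1 to Acot2 is a description only. Ucp3 had one of the 2 largest falls on the log2 scale, and its promoter holds AGGTCA at 2 places, in capitals (RefSeq, GRCm38.p6, chr7:100472741-100473040, plus strand).
Ucp3 promoter: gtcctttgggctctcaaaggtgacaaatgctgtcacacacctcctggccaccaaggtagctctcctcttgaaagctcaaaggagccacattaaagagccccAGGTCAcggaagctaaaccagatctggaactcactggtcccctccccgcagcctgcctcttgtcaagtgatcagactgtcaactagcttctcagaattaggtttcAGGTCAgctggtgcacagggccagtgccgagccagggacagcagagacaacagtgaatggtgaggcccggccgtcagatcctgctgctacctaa

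**Figure D3:**
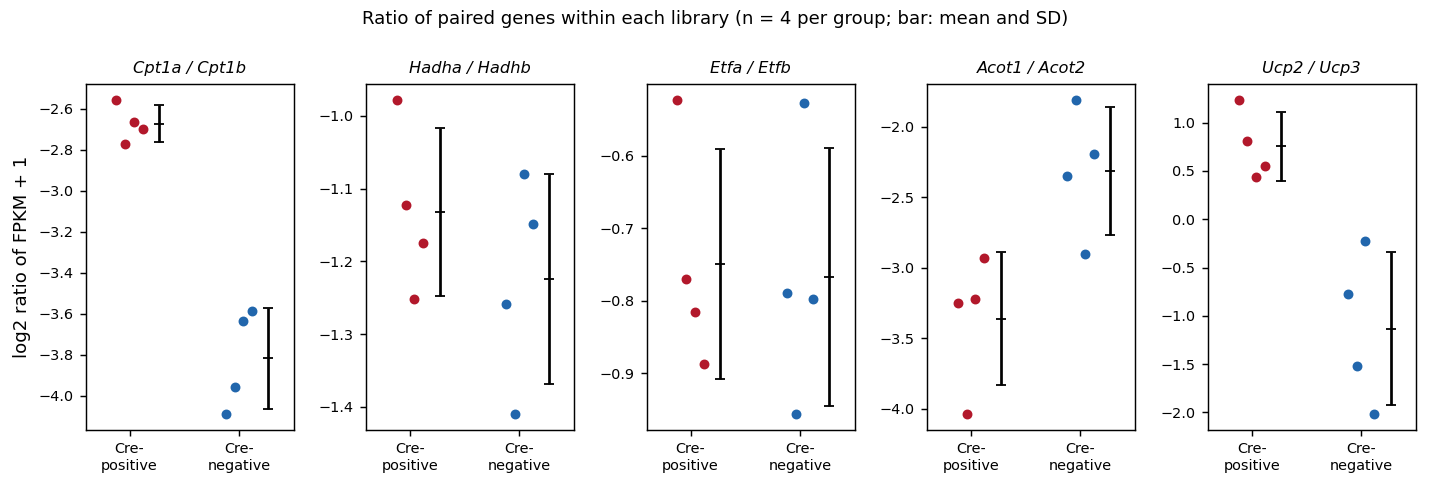
Log2 ratio of FPKM + 1 within each library for 5 gene pairs, with Cre-positive libraries left of Cre-negative libraries, mean and SD as bars, and a separate vertical scale in each panel. The groups do not overlap for Cpt1a to Cpt1b, Acot1 to Acot2 and Ucp2 to Ucp3, and they overlap for Hadha to Hadhb and Etfa to Etfb.

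Of the synthetases, Acss1 fell and Acsl5 was not called. Acss1, which makes acetyl-CoA from acetate in mitochondria, had 36.6, 34.4, 36.5 and 38.4 FPKM in Cre-positive and 123, 141, 109 and 124 FPKM in Cre-negative libraries. Its Cre-positive mean was 29.4% of the Cre-negative mean, with little spread inside either group (log2 change -1.74, SE 0.09, limma adjusted p = 8.21e-07). Acsl5, an acyl-CoA synthetase best known from intestine and liver, had 9.20, 9.13, 9.70 and 9.84 FPKM in Cre-positive and 9.92, 11.04, 9.38 and 9.82 FPKM in Cre-negative libraries. Its groups overlapped and its log2 change was -0.07 with an SE of 0.08 (adjusted p = 0.475). The promoter of Acss1 is shown as that of the member with the largest fall after Acot1, Ucp3 and Acaa2 (RefSeq, GRCm38.p6, chr2:150668191-150668490, minus strand), and it holds no AGGTCA.
Acss1 promoter: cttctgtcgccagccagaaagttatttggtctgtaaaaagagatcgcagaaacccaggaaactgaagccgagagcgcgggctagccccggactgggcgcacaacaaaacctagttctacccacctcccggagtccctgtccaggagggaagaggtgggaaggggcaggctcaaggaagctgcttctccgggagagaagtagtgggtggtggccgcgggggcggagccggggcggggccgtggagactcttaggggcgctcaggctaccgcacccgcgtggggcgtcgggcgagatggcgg

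Promoter windows, from 250 bases before to 50 after the RefSeq start, were matched for 28 of the 33 members. AGGTCA on either strand, the half-site read by many nuclear receptors, occurred in 5 of the 28 (Cpt1a, Acadvl, Acadm, Echs1 and Ucp3), or 17.9%, against 18.1% of 27025 genes with a window. AAGGTCA, the longer site read by ERR receptors, which contains AGGTCA, occurred in Acadm alone, or 3.57%, against 5.38% of all genes. A pair of AGGNCA half-sites 1 base apart, close to the site of PPAR with RXR, occurred in none of the 28 and in 0.451% of all genes. GCGCA followed by any base and GCGC, the site of the respiratory gene regulator NRF1, occurred in Slc22a5, Acad10, Acad12, Etfb and Etfdh, or 17.9%, against 5.19% of all genes. Member windows were also richer in G and C, with a median of 61.0% against 52.7% for all windows. These are letter matches in short windows and not measured binding.

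Inside each group, many members were lowest or highest in the same library. Cre-positive library 1 was the lowest of its group for 24 of the 33 genes and library 4 the highest for 21. Among the Cre-negative libraries, library 3 was the lowest for 27 and library 2 the highest for 26. The FPKM sum of all genes was also lowest in Cre-positive 1 (460601) and Cre-negative 3 (545102), and highest in Cre-negative 2 (612162). Among Cre-positive libraries that sum was highest in library 2 (478667), against 471066 in library 4. The same counts over all genes are not given here, so the pattern is not shown to be particular to the members. The median ratio to the group mean was 0.912 in Cre-positive library 1 and 1.08 in library 4, and 0.835 in Cre-negative library 3 and 1.16 in library 2. Cre-positive 4 and Cre-negative 2 have low Rn45s and high estimated depth, 22.5 and 15.2 M fragments, against 4.49 M in Cre-positive 1 and 5.51 M in Cre-negative 3. Cre-positive 3 also has low Rn45s and is the deepest library at 23.4 M. It was the highest of its group for 2 genes and the lowest for 4, with a median ratio of 1.02. A link of member levels to Rn45s or depth was not tested. In the 5 libraries with high Rn45s the median log2 change of the members was -1.07, and in the 3 with low Rn45s, which hold 1 Cre-negative library, it was -1.18. All 27 members called lower had a negative change in both sets. The coefficient of variation over the 4 libraries had a median of 11.03% in Cre-positive and 13.6% in Cre-negative libraries over the 33 genes.

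**Figure D4:**
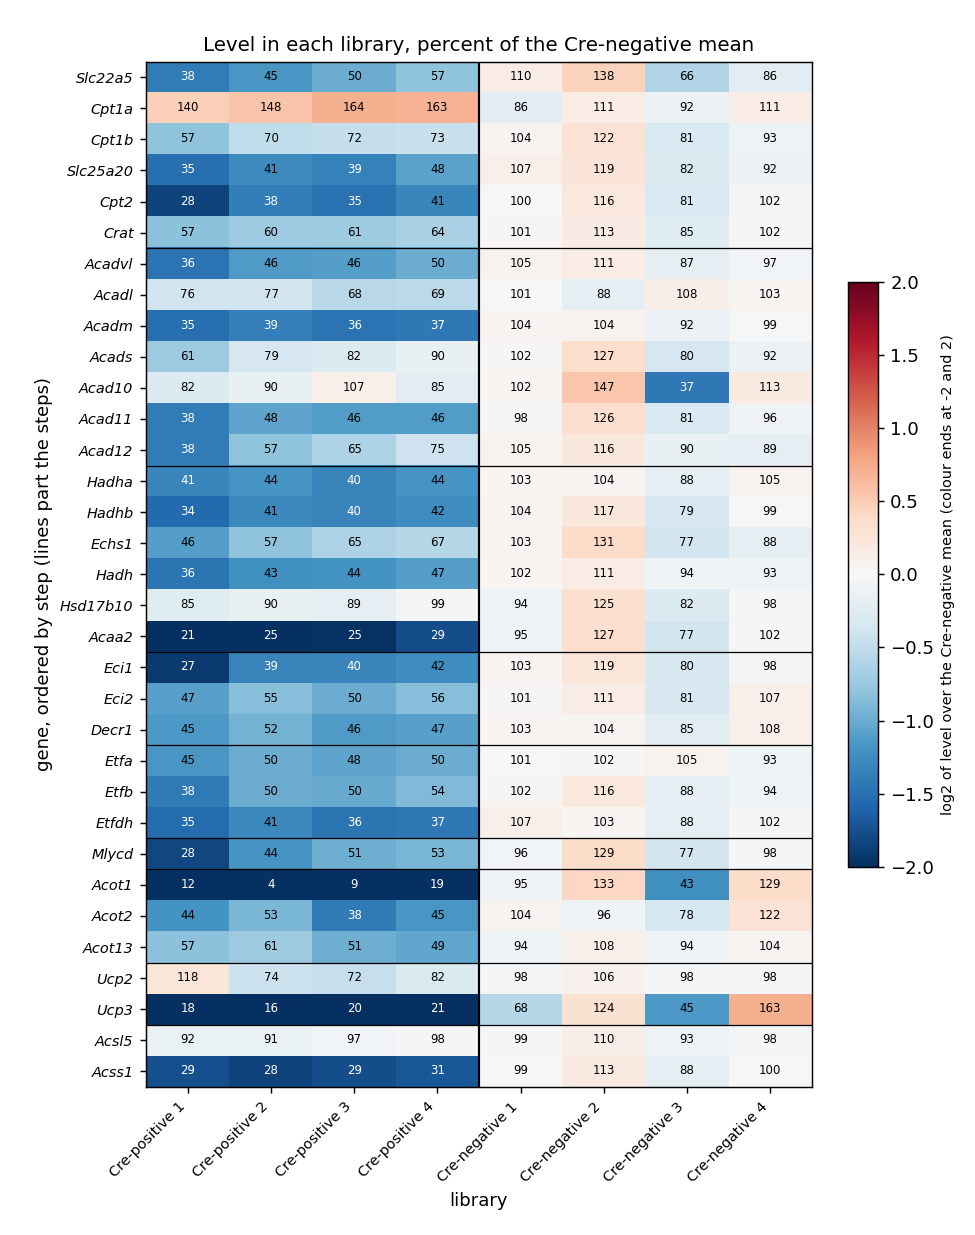
Level of each of the 33 genes in each library as a percent of its Cre-negative mean, Cre-positive libraries on the left, with colour for the log2 of that ratio (blue lower, red higher). Acot1, Ucp3, Acaa2 and Acss1 are dark blue in all 4 Cre-positive libraries, Cpt1a stands above 100 in all 4, and Cre-negative library 3 is bluer than library 2 in most rows.

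Other genes of the pathway, from lists outside the 33, moved less uniformly: 44 of 92 tested genes fell and 11 rose, at a median log2 change of -0.26. Over all genes tested 19.4% were called lower and 19.7% higher. Among 13 tested genes of uptake and activation 6 fell and 3 rose. Lpl, the lipase that frees fatty acids from circulating triglyceride, stood at 315 ± 5.49 FPKM in Cre-positive and 1268 ± 65.9 FPKM in Cre-negative libraries, and Acsl1, the main long-chain acyl-CoA synthetase of heart, at 175 ± 11.7 FPKM in Cre-positive and 537 ± 37.0 FPKM in Cre-negative libraries (SD, n = 4 per group). Acsl6 fell as well, with a log2 change of -1.30 (limma adjusted p = 2.57e-04). Of 8 genes of malonyl-CoA control 2 fell, near the share of all genes, and 3 rose. There the catalytic subunits of AMP-activated kinase parted: Prkaa2, the form of muscle, stood at 23.6 ± 1.33 FPKM in Cre-positive and 46.4 ± 7.498 FPKM in Cre-negative libraries (log2 change -0.94, adjusted p = 7.71e-05), while Prkaa1 rose by 0.37. The regulatory subunit Prkag2 rose by 0.90 (adjusted p = 6.69e-05).

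Among 13 further hydratase, dehydrogenase and thiolase genes 8 fell and 2 rose. For this and the next lists, 19.4% of all tested genes were called lower and 19.7% higher. Ech1, a dienoyl-CoA isomerase of mitochondria and peroxisomes, stood at 428 ± 67.3 FPKM in Cre-positive and 1305 ± 313 FPKM in Cre-negative libraries (SD, n = 4 per group; log2 change -1.59, limma adjusted p = 6.3e-05). Hsdl2 and Ehhadh, the peroxisomal bifunctional enzyme, changed by -1.13 and -1.003. Of 7 further genes of the acyl-CoA dehydrogenase family 4 fell, led by Gcdh of lysine breakdown (-0.78, adjusted p = 5.01e-05). Of 5 further carnitine genes 2 fell and 1 rose, with Slc25a29 at -0.54, Aldh9a1 at -0.54 and Slc22a4, a plasma membrane transporter related to Slc22a5, at 0.43. Among 6 further thioesterases 3 fell and 1 rose, where Acot6, one of the 3, had means of 0.966 FPKM in Cre-positive and 1.46 FPKM in Cre-negative libraries and so passed the minimum only through the Cre-negative ones. The mitochondrial Acot9 stood at 38.4 ± 0.662 FPKM in Cre-positive and 19.2 ± 1.18 FPKM in Cre-negative libraries (log2 change 0.96, adjusted p = 4.28e-06). Of 14 genes of flavin and coenzyme A supply 5 fell and none rose. Slc25a42, a mitochondrial carrier of coenzyme A, fell most there (-1.44, adjusted p = 1.74e-04), followed by Flad1, which makes FAD (-0.82, adjusted p = 2.38e-04).

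Of 22 transcription regulators of fatty acid oxidation 13 fell and none rose, where 19.4% of all tested genes were called lower and 19.7% higher. Ppargc1b, a PGC-1 coactivator, had the largest change of them at -1.73 (limma adjusted p = 4.2e-06), followed by Ppara, the fatty acid receptor, at -1.11 (adjusted p = 3.44e-05) and Rxrg, a retinoid X receptor, at -1.08 (adjusted p = 0.00205). Among 4 tested relatives of the uncoupling proteins 1 fell and 1 rose, near the shares of all genes. The adenine nucleotide carrier of heart and muscle, Slc25a4, stood at 3202 ± 224 FPKM in Cre-positive and 5999.8 ± 494 FPKM in Cre-negative libraries (SD, n = 4 per group, log2 change -0.90). Slc25a5, the form of other tissues, stood at 431 ± 16.6 FPKM in Cre-positive and 303 ± 39.9 FPKM in Cre-negative libraries (log2 change 0.51, limma adjusted p = 0.00181). Ucp1 was at 0.0700 FPKM or less in all libraries.

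Markers of other cell types were read against the 39.2% of all tested genes called in either direction. Of 10 fibroblast markers 7 rose and 1 fell, with a summed level of 916 to 1032 FPKM in Cre-positive and 653 to 769 FPKM in Cre-negative libraries. Of 10 macrophage markers 6 fell and none rose (198 to 279.7 FPKM in Cre-positive and 304 to 399 FPKM in Cre-negative libraries). Of 10 endothelial markers 3 fell and 1 rose, a share near that of all genes (372 to 436 FPKM in Cre-positive and 446 to 511 FPKM in Cre-negative libraries). Of 10 smooth muscle and pericyte markers 1, Kcnj8, fell and 4 rose (964 to 1410.4 FPKM in Cre-positive and 497 to 637 FPKM in Cre-negative libraries). Most of the difference in that sum lay in Acta2, with means of 779 FPKM in Cre-positive and 194 FPKM in Cre-negative libraries. Cnn1, Tagln and Cspg4 also rose, and Myh11, Smtn, Rgs5, Pdgfrb and Notch3 were not called. Of 8 skeletal muscle markers 2 were tested: Ckm, which is also a cardiomyocyte marker, fell, and Tnnt3 rose, at 6.95 ± 1.69 FPKM in Cre-positive and 0.142 ± 0.0905 FPKM in Cre-negative libraries (SD, n = 4 per group). Tnnt3 passed the minimum only through the Cre-positive libraries. The other 6 were below the minimum: Myh1, Myh2, Myh4 and Actn3 were at 0.0770 FPKM or less in all libraries and Mylpf at 1.49 FPKM or less with overlapping groups. Tnni2 went the other way from Tnnt3, at 0.173 ± 0.211 FPKM in Cre-positive and 1.45 ± 0.767 FPKM in Cre-negative libraries (SD, n = 4 per group), without overlap. Cidea, the only adipocyte marker tested, rose by 0.34 (adjusted p = 0.00783). The part of these markers in the changes of the members was not tested.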

How the data were processed

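RNA from 8 ventricle lysates was sequenced as stranded, ribosome-depleted total RNA libraries, per the labels' protocols. The authors deposited FPKM, 1 value per gene symbol and library, made with Cufflinks after Bowtie2 2.2.6 on mm10, per the submitters' processing notes. The sources used here do not give the annotation, the use of strand or any filter before deposit. The lowest value in the table is 0.01 FPKM, and 6 entries in 3 genes, none a member, hold a word and were treated as missing.

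The 11688 genes whose mean over 8 libraries reached 1 FPKM entered limma 3.58.1 (R 4.3.3, eBayes with a trend), fitted to log2(FPKM + 1). P-values were adjusted by Benjamini-Hochberg over these genes, with a threshold of 0.05. Log2 changes on this scale understate the change of low genes. Ratios of 2 members were tested over all 70 assignments of libraries (exact permutation test, two-sided) and adjusted over 5 ratios. Nothing in the labels says that the libraries of a group came from separate animals, so p-values measure only the spread between these samples, which may be technical. The library names of Cre-negative 1 and 2 differ only by an ending, and averaging them was an alternative. Their log2 differences had an SD of 0.355, the lowest of the 6 Cre-negative pairs, against 0.356 to 0.462 for the other 5.

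Depth was estimated from FPKM multiplied by transcript length for genes with 1 GENCODE M21 transcript of 500 to 4000 bases, where single fragments form a step. Intervals and floors from it cover counting error only. Coordinates are the table's mm10 loci with 1 added to the start, after which 11863 of 23138 starts equalled those of RefSeq GRCm38, against 680 as written. Shared 50-base stretches were counted in GENCODE M21 transcripts on either strand, so some may be antisense to the member. The division of reads between such genes was not measured. The limma model was also run on simulated data, with noise independent between genes and far fewer genes changed than were called here. These settings differ from the deposited libraries, so that run is no support for the results.

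The members, lists and most tests were chosen with earlier results of these data known. Values in every library are given for shuttle genes, for the 2 largest changes of each other step and for members not called or higher. Other lists name up to 3 called genes.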

Additional observations from a re-analysis of the deposited data

Results flagged for a closer look

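Of 76 groups of 4 values (33 genes and 5 ratios in each group of libraries), 2 had an end value far from the rest by Dixon's test at the 95% level, which chance alone gives in about 5% of groups. Hadha in Cre-negative libraries had library 3 at 494 FPKM, below 574 to 588 FPKM in the other 3, a gap of 0.847 of the range. Without that library Hadha was still called lower (-1.30, limma adjusted p = 4.18e-06). Ucp2 in Cre-negative libraries had library 2 at 18.01 FPKM and the other 3 at 16.6 FPKM, a gap of 0.962 of a narrow range.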

How the results depend on the processing

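Over the 21 alternatives, members called lower numbered 25 to 28, where a test could be made, and members called higher 1 or 2. No called member changed sign. The median log2 change of the members lay between -1.18 and -0.78, and with 1 library left out between -1.18 and -1.02.

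Scaling to a fixed sum of FPKM moved the most: 2 members were called higher, 5340 of all genes higher and 1030 lower, and the member median was -0.78. Values not called as deposited were reversed there for Hsd17b10 (0.18), Ucp2 (0.069) and Acsl5 (0.20). Cpt1b (-0.23) and Acadl (-0.16) lost their calls on that scale, Acadl also after quantile normalization (-0.17), and Acad12 lost its call with no minimum (adjusted p = 0.0503). Ucp2 gained a call with array weights (-0.33) and without Cre-positive library 1 (-0.37). Acads gained one with the split of libraries by Rn45s as a term (-0.44) and without Cre-negative library 3 (-0.45). The cause was not tested.

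With 1 library left out, the difference in log2 ratio ranged from 1.05 to 1.22 for Cpt1a to Cpt1b, from -1.24 to -0.82 for Acot1 to Acot2 and from 1.59 to 2.19 for Ucp2 to Ucp3, with adjusted p from 0.0476 to 0.0952. For Etfa to Etfb it ranged from -0.0568 to 0.0988 and changed sign without Cre-positive library 1 (-0.0568) and without Cre-negative library 2 (-0.0443). With Cre-negative libraries 1 and 2 averaged, the differences were 1.08, -0.97, 1.88 and, reversed, -0.0164 for these 4 ratios, none past the threshold.

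The titles number libraries 1 to 4 in both groups, but same-numbered libraries did not deviate together (correlations -0.0872, -0.162, -0.126 and -0.0776), and no library correlated best with its own number. With the replicate block 27 members were called lower and 1 higher, and over all genes 1963 were higher and 1899 lower. Depth limits Acot1 and Acad10, whose lowest values rest on 6.70 and 6.21 estimated fragments.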
